A study of Rattus norvegicus with 12 samples.

Results

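The genes described here are 41 targets and effectors of the integrated stress response: the transcription factor Atf4 with other stress regulators, enzymes of serine, glycine, asparagine, proline and one-carbon metabolism, amino acid transporters, and 16 cytosolic aminoacyl-tRNA synthetases. They were taken by gene symbol from the 17312 symbols that each expression file lists, with the synthetases under their older names without a suffix. All 41 symbols were found. Of these, 40 passed the filter on low values, as did 10518 genes in all, and Aldh18a1, an enzyme of proline synthesis, was listed at 0 in all 12 libraries and was not tested. Messenger RNA was sequenced from ventricular cardiomyocytes of newborn Wistar rats, kept in culture. The groups were stretched cells with an siRNA against Wnt5a (stretched Wnt5a siRNA), unstretched cells with that siRNA (unstretched Wnt5a siRNA), stretched cells with a control siRNA (stretched control) and unstretched cells with a control siRNA (unstretched control), with 3 libraries in each. Every group carried an siRNA, and the sources used here do not give the length and size of the stretch or the siRNA sequences. By its title the study asks whether Wnt5a takes part in the response of cardiac myocytes to mechanical load. The labels do not say whether the numbered libraries came from separate cultures, so the tests measure the spread between libraries, which may be technical.

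Wnt5a is a secreted ligand of the noncanonical Wnt pathways. In the integrated stress response, kinases that sense amino acid shortage, unfolded protein in the endoplasmic reticulum, haem shortage or double-stranded RNA phosphorylate the initiation factor eIF2, which lowers general protein synthesis and lets the ATF4 messenger RNA be translated. ATF4 then binds, often with a C/EBP partner, to C/EBP-ATF response elements and raises genes for amino acid synthesis, amino acid uptake and the charging of tRNA. In heart muscle this programme is known from mitochondrial disease and pressure overload, and growth of the myocyte also draws on amino acids and tRNA charging.

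Values are the authors' FPKM (fragments per kilobase of transcript, scaled to the fragments of the library), so that levels can be set beside each other between genes. Changes are differences of log2(FPKM + 1) with their SE from a limma fit to all 12 libraries (n = 3 per group), and adjusted p-values are by Benjamini and Hochberg over all 10518 genes tested. A gene is called higher or lower where its adjusted p is under 0.05. Wnt5a, the target of the siRNA, had 6.22, 5.88 and 5.56 FPKM in stretched Wnt5a siRNA cells and 6.15, 4.60 and 6.81 FPKM in unstretched Wnt5a siRNA cells. It had 6.52, 5.66 and 8.22 FPKM in stretched control cells and 12.3, 10.4 and 11.6 FPKM in unstretched control cells. The siRNA thus lowered Wnt5a in unstretched cells (−0.87 ± 0.14, adjusted p = 0.0014), while the difference in stretched cells did not pass the test (−0.17 ± 0.14, adjusted p = 0.39). Under control siRNA Wnt5a was itself lower with stretch (−0.68 ± 0.14, adjusted p = 0.0014).

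Library 3 of the stretched control group stood apart from the other 2. Its log2 values differed from theirs with an SD over genes of 0.393 and 0.426, against 0.205 to 0.288 for all other pairs of libraries within a group. Among the 40 tested members it lay above both other stretched control libraries in 22, below both in 10 and between them in 8. For 10 members, none of them a synthetase, it was at least 1.5-fold above their mean, from 1.60-fold for Pycr1 to 2.67-fold for Slc7a11. Psat1, an enzyme of serine synthesis, had 41.6, 37.0 and 41.6 FPKM in stretched Wnt5a siRNA cells and 19.7, 15.1 and 41.8 FPKM in stretched control cells. Phgdh, the first enzyme of serine synthesis, had 74.9, 60.9 and 69.0 FPKM in stretched Wnt5a siRNA cells and 31.8, 24.6 and 66.2 FPKM in stretched control cells. In both, chosen after their values were seen, stretched control 3 lay within or next to the range of the stretched Wnt5a siRNA libraries. Member counts in comparisons with this group, and values of several genes, are given with and without it. For other genes, such as Trib3 and Chac1, values are given only with it.

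Markers of other cell types were present beside those of cardiomyocytes. Markers of cardiomyocytes (Tnnt2, Tnni3, Myh6, Actn2, Myl2 and Ryr2) summed to 9098 to 10926 FPKM in stretched Wnt5a siRNA, 10329 to 10871 in unstretched Wnt5a siRNA, 9285 to 15376 in stretched control and 14054 to 16492 in unstretched control libraries. Markers of fibroblasts (Dcn, Pdgfra, Tcf21, Postn, Col1a1 and Dpt) summed to 5209 to 5552, 3249 to 3367, 2939 to 5191 and 2146 to 2417 FPKM in the same order. Markers of macrophages (Cd68, Lyz2, Csf1r, Ptprc, C1qa and Cd53) summed to 277 to 316, 111 to 118, 240.1 to 393 and 120.2 to 156 FPKM. The highest fibroblast and macrophage sums of the stretched control group were those of stretched control 3. This library also had the lowest cardiomyocyte sum of its group, 9285 FPKM, against 13313 and 15376 FPKM in the other stretched control libraries, and it lay within the range of the stretched Wnt5a siRNA libraries. Markers of endothelium (Pecam1, Cdh5, Kdr, Tek and Vwf) summed to 21.9 to 36.5, 5.33 to 15.8, 12.3 to 18.1 and 8.52 to 15.9 FPKM, and those of smooth muscle and pericytes (Myh11, Cnn1, Pdgfrb, Rgs5 and Kcnj8) to 460.0 to 505, 453 to 604, 497 to 666 and 361 to 398 FPKM. No marker was at 0 in any library. With stretch under Wnt5a siRNA, 5 of 6 fibroblast, 6 of 6 macrophage and 2 of 4 tested endothelial markers were called higher and 2 of 6 cardiomyocyte markers lower. With stretch under control siRNA, 4 of 6 fibroblast, 4 of 6 macrophage and 1 of 4 endothelial markers were higher, and of the 6 cardiomyocyte markers 1 was higher and 3 were lower. With Wnt5a siRNA in stretched cells, 4 of 6 fibroblast and 1 of 4 endothelial markers were higher, and 1 of 6 cardiomyocyte and 1 of 6 macrophage markers lower. With Wnt5a siRNA in unstretched cells, 3 of 6 cardiomyocyte and 3 of 6 macrophage markers were lower, no endothelial marker was called, and of the 6 fibroblast markers 2 were higher and 1 was lower. Of the 5 smooth muscle and pericyte markers, at most 2 were called in each direction in each of these comparisons. Of all genes, the shares called higher and lower were, in the same order, 8.44% and 7.59%, 27.5% and 26.8%, 13.2% and 14.2%, and 14.6% and 13.9%. The endothelial and cardiomyocyte markers called higher with stretch under control siRNA (25% and 16.7%) thus did not exceed the share of all genes. The part of these cells in the results below was not tested, and in bulk RNA fewer cells of a type and less RNA per cell cannot be told apart.

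Promoters from RefSeq (build GRCr8, 250 bases before to 50 bases after each start) were matched to 37 of the 41 genes by symbol or synonym. The core of the C/EBP-ATF response element, TGATGNAA, was searched on both strands, where it also reads TTNCATCA. It was present in 12 of the 37 members (32.4%) and in 1141 of 27457 genes of the whole table (4.16%). Of 14 synthetases with a promoter, 7 held it (50.0%): Aars, Cars, Iars, Mars, Nars, Tars and Yars. The other 5 members were Trib3, Chac1, Pycr1, Slc7a1 and Slc1a4. The windows of 8 of these 12 members are shown as examples from each role group in which the core lies before the start, with up to 30 bases on each side of the core, the core in capitals, and each read in the direction of its gene.
Trib3 (chr3:161275534-161275584, − strand): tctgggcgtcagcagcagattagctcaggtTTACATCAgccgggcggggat
Chac1 (chr3:126795934-126796001, + strand): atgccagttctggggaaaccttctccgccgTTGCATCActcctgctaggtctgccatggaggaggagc
Pycr1 (chr10:106420906-106420973, − strand): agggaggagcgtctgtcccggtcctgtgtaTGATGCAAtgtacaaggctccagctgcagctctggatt
Slc7a1 (chr12:11664428-11664487, + strand): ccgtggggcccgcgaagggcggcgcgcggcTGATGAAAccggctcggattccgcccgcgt
Aars (chr19:55908340-55908407, + strand): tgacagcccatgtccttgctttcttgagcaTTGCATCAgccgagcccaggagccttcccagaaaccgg
Iars (chr17:15193653-15193706, − strand): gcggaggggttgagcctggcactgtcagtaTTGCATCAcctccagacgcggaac
Mars (chr7:65023754-65023800, − strand): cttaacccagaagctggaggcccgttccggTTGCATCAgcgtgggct
Tars (chr2:62114803-62114859, − strand): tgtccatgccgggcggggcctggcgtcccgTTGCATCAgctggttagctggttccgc

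In these windows the first base of the core lay 21 bases before the start in Trib3, 167 in Chac1, 131 in Pycr1, 30 in Slc7a1, 112 in Aars, 24 in Iars, 17 in Mars and 27 in Tars. Aars, Iars, Mars, Tars and Chac1 carried the same 8 letters, TTGCATCA, while Slc7a1 had TGATGAAA on the gene's own strand. The Aars promoter held the core once more, as TTTCATCA after the start. A match describes the letters of the sequence and does not show that a factor binds there. No promoter of the 16 mitochondrial synthetases in the table held the core. Nor did any promoter of the 11 chaperones of the endoplasmic reticulum, of 12, that have one there. At the share of all genes, 4.16%, few of 16 or 11 genes would hold it, so these lists cannot show a lack of the core. None of 6 other cytosolic synthetases and complex proteins with a promoter held it. Of 20 other genes linked to ATF4 with a promoter, 6 did, so the core was not particular to the members.

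With control siRNA, stretch raised 30 of the 40 tested members and lowered none, against 27.5% of all genes called higher and 26.8% called lower in that comparison. The median change of the members was 0.51, and that of all genes was 0.01. The libraries of the stretched control lay wholly above those of the unstretched control for 29 members, against 29% of all genes. By role, 4 of 9 regulators, 5 of 8 enzymes, 5 of 7 transporters and 16 of 16 synthetases were called higher. Without stretched control 3, 28 were higher and 2 were lower, against 29.2% and 28.2% of all genes. Again 16 of 16 synthetases were higher. With each library scaled to the same sum, 21 members were higher and 1, Sesn2, was lower, and Ddit3, Cebpg, Asns, Psph, Slc38a2, Kars, Lars, Mars and Sars were no longer called. That scaling left 13.8% of all genes higher and 42.7% lower. It moved the median of all genes to −0.19, and the median of the members stayed 0.52 above that.

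With Wnt5a siRNA, stretch raised 9 of the 40 members and lowered none, against 8.44% of all genes called higher and 7.59% called lower. Their median change was 0.20, against −0.01 for all genes, and in 22 members the stretched libraries lay wholly above the unstretched ones, against 20.1% of all genes. The count depends on the libraries left out. It was 18 without stretched control 3, a library of neither group, against 12.6% of all genes. It was 4 without unstretched Wnt5a siRNA 1 or stretched Wnt5a siRNA 1, against 5.08% and 4.69% of all genes. It was 5 without unstretched Wnt5a siRNA 3 or stretched Wnt5a siRNA 2, against 5.85% and 5.52%. It was 2 of 40, Ddit3 and Slc3a2, with each library scaled to the same sum. That was near the share of all genes, 4.77%, so with this scaling the members did not stand out by count. It was 16 in a fit of these 2 groups alone, against 11.2% of all genes. The difference between the changes with stretch under Wnt5a and control siRNA was tested as an interaction, the change under Wnt5a siRNA minus that under control siRNA. In 20 members the rise with stretch was smaller under Wnt5a siRNA and in none larger, against 12.1% and 11.7% of all genes. Those 20 were 2 regulators, 3 enzymes, 3 transporters and 12 synthetases. With each library scaled to the same sum they numbered 17, against 7.75% of all genes, as Shmt1, Eprs and Lars were no longer called. Without stretched control 3 they numbered 22, and 2 members, Atf5 and Ddit4, had a larger change under Wnt5a siRNA. The shares of all genes in that fit were 18.1% and 16.5%.

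**Figure D1:**
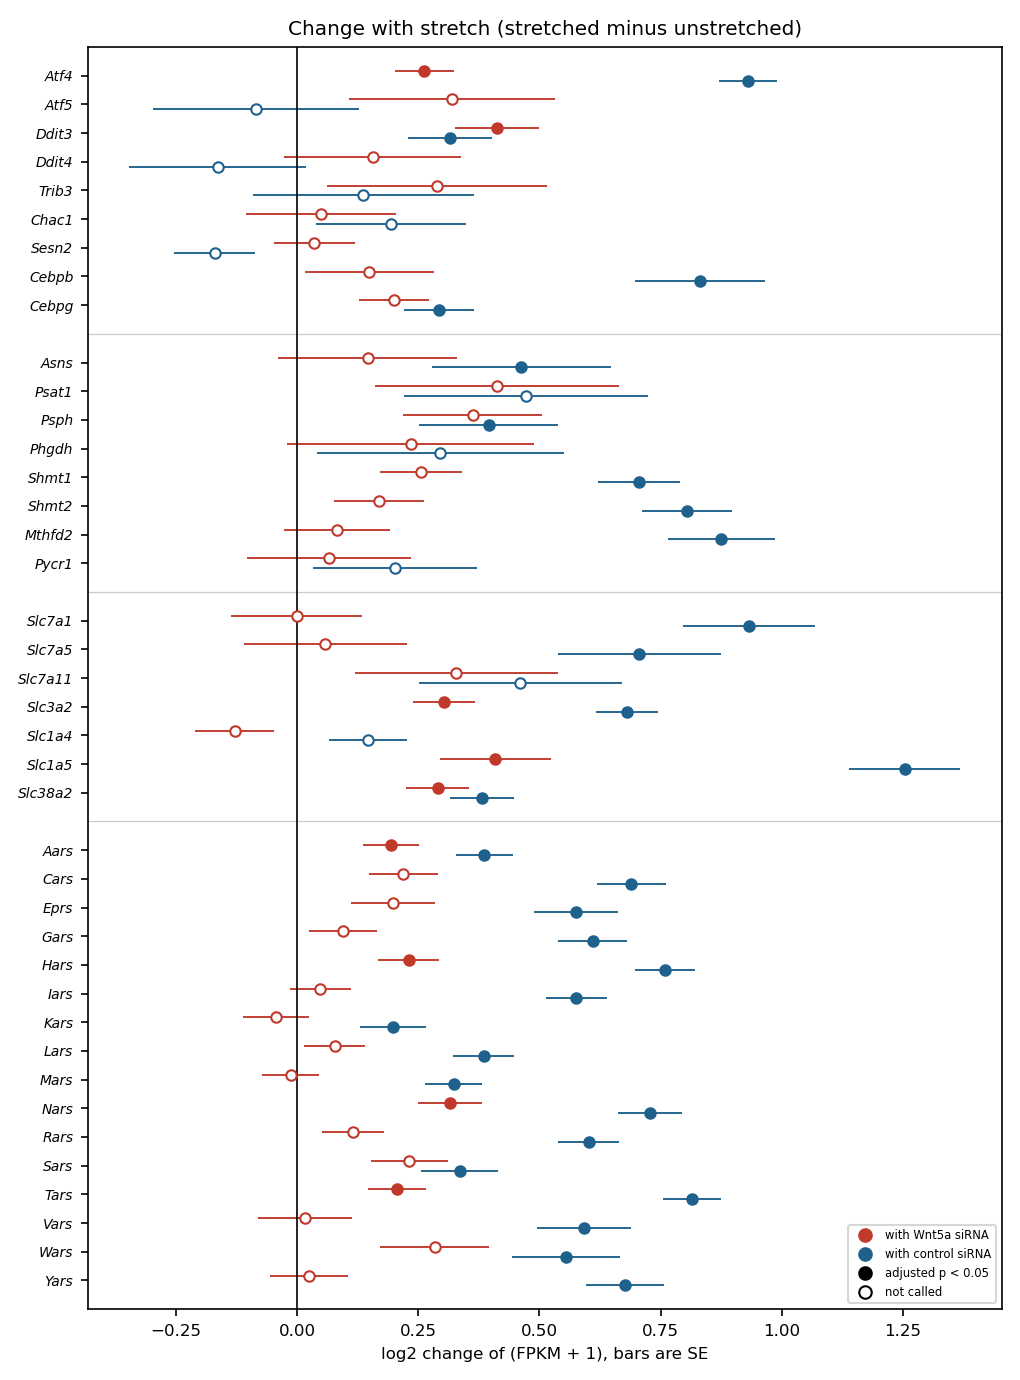
Change with stretch of each tested member, as the difference of log2(FPKM + 1), with Wnt5a siRNA and with control siRNA. Points are the fitted changes, bars are the SE, open symbols were not called, and genes are grouped by role. The 16 synthetases lie between −0.04 and 0.32 with Wnt5a siRNA, and all to the right of 0, between 0.20 and 0.81, with control siRNA.

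In unstretched cells, Wnt5a siRNA raised 30 members and lowered 1, against 14.6% and 13.9% of all genes. The median change was 0.34, against 0.00 for all genes, and the siRNA libraries lay wholly above the control libraries in 34 members, against 24.7% of all genes. In stretched cells it raised 9 members and lowered 11, against 13.2% and 14.2% of all genes, with a median of 0.00. The 9 that were higher were 4 regulators, 3 enzymes and 2 transporters. The 11 that were lower were 2 regulators, 2 transporters and 7 synthetases. The libraries lay wholly above in 7 members and wholly below in 11, against 18.6% and 19% of all genes. The counts in stretched cells were 14 higher and 13 lower without stretched control 3, against 21.8% and 22.6% of all genes. The count of higher members was 4 without stretched control 1, stretched control 2, stretched Wnt5a siRNA 1 or stretched Wnt5a siRNA 3. Of all genes, 4.9% to 7.62% were higher in these fits. The count of lower members was 6 without stretched control 1 or stretched Wnt5a siRNA 3, against 5.51% and 6.4% of all genes. It was 7 without stretched Wnt5a siRNA 1 or 2, against 8.6% and 11.4%. With each library scaled to the same sum, 13 members were higher in stretched cells, against 20.8% of all genes. The 5 lower ones were then Atf4, Slc7a1, Iars, Rars and Yars, against 7.71% of all genes.

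Set out by level, the members were sorted by the group with the highest mean, which places every gene somewhere however small the gap. The mean was highest in stretched Wnt5a siRNA cells for 19 members and in stretched control cells for 20, and Slc1a4 was highest in unstretched Wnt5a siRNA cells. The 19 held 7 of 9 regulators, 5 of 8 enzymes, 3 of 7 transporters and 4 of 16 synthetases. The 20 held Atf4, Cebpb, Shmt1, Shmt2, Mthfd2, Slc7a1, Slc3a2, Slc38a2 and 12 synthetases. Without stretched control 3, Lars changed sides, which made 20 and 19. The mean was lowest in unstretched control cells for 34 of 40 members, or for 30 without stretched control 3. The order of the means is a description, and in Nars and Mthfd2, for example, the libraries of both stretched groups overlapped. In Slc1a5 the means were 31.3 FPKM in stretched Wnt5a siRNA and 31.1 FPKM in stretched control cells. Between the stretched groups 9 members were called higher and 11 lower with Wnt5a siRNA, and 20 were not called.

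Atf4 was the most abundant member per length and the regulator with the smallest adjusted p. It had 325, 318 and 305 FPKM in stretched Wnt5a siRNA cells and 259, 274 and 256 FPKM in unstretched Wnt5a siRNA cells, and 445, 419 and 394 FPKM in stretched control cells and 218, 218 and 222 FPKM in unstretched control cells. The 4 groups did not overlap, with stretched control highest and unstretched control lowest. With stretch Atf4 rose by 0.26 ± 0.06 under Wnt5a siRNA (adjusted p = 0.012) and by 0.93 ± 0.06, or 1.91-fold, under control siRNA (adjusted p = 1.1e-06). The call under Wnt5a siRNA was lost without stretched Wnt5a siRNA 1 or unstretched Wnt5a siRNA 1 (log2 change 0.24 to 0.25, adjusted p = 0.052 to 0.054). The interaction was −0.67 ± 0.09 (adjusted p = 0.0011). With Wnt5a siRNA, Atf4 was lower in stretched cells (−0.41 ± 0.06, adjusted p = 0.0018) and higher in unstretched cells (0.26 ± 0.06, adjusted p = 0.0082).

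Cebpb, a C/EBP factor that dimerises with ATF4, had 13.3, 10.4 and 12.4 FPKM in stretched Wnt5a siRNA cells and 9.89, 10.5 and 11.9 FPKM in unstretched Wnt5a siRNA cells, and 16.5, 16.5 and 14.9 FPKM in stretched control cells and 10.1, 9.22 and 6.66 FPKM in unstretched control cells. Stretched control libraries lay above all others. Its change with stretch of 0.15 ± 0.13 under Wnt5a siRNA did not pass the test (adjusted p = 0.49), and under control siRNA it rose by 0.83 ± 0.13 (adjusted p = 0.00024). The interaction was −0.68 ± 0.19 (adjusted p = 0.022), and without stretched Wnt5a siRNA 2 (log2 change −0.59, adjusted p = 0.051) it was no longer called. Its fall with Wnt5a siRNA in stretched cells (−0.39 ± 0.13, adjusted p = 0.049) was lost without stretched Wnt5a siRNA 1, 2 or 3 or unstretched Wnt5a siRNA 1, 2 or 3 or stretched control 1 or 2 or unstretched control 2 (log2 change −0.46 to −0.29, adjusted p = 0.054 to 0.16). Cebpg, another C/EBP partner, had 28.9, 26.7 and 30.7 FPKM in stretched control cells and 22.8, 22.8 and 24.2 FPKM in unstretched control cells, without overlap (0.29 ± 0.07, adjusted p = 0.0044). It was not called in any other comparison.

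Trib3, a pseudokinase that ATF4 and CHOP induce, had 22.6, 18.4 and 25.1 FPKM in stretched Wnt5a siRNA cells and 17.4, 16.6 and 19.2 FPKM in unstretched Wnt5a siRNA cells. It had 6.91, 6.48 and 13.9 FPKM in stretched control cells and 5.94, 8.60 and 8.94 FPKM in unstretched control cells. All Wnt5a siRNA libraries lay above all control libraries. With Wnt5a siRNA Trib3 rose by 1.25 ± 0.23 in stretched cells (adjusted p = 0.0038) and by 1.10 ± 0.23 in unstretched cells (adjusted p = 0.0046). Its change with stretch was 0.29 ± 0.23 under Wnt5a siRNA and 0.14 ± 0.23 under control siRNA, and neither passed the test (adjusted p = 0.43 and 0.63).

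Chac1, which degrades glutathione, had 17.3, 15.2 and 17.1 FPKM in stretched Wnt5a siRNA cells and 15.2, 17.3 and 15.3 FPKM in unstretched Wnt5a siRNA cells. Control cells had 7.18, 8.11 and 12.3 FPKM when stretched and 6.64, 7.92 and 8.72 FPKM when unstretched, and no control library reached a Wnt5a siRNA library. The rise with Wnt5a siRNA was 0.81 ± 0.15 in stretched cells (adjusted p = 0.0047) and 0.95 ± 0.15 in unstretched cells (adjusted p = 0.0014). With stretch its change was 0.05 ± 0.15 under Wnt5a siRNA and 0.19 ± 0.15 under control siRNA (adjusted p = 0.86 and 0.31). Trib3 and Chac1 both carry the response element core in the windows given above, while Atf4, Cebpb and Cebpg do not within their 300 bases.

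The other regulators were Atf5, a transcription factor related to ATF4, Ddit3, which encodes CHOP, and Ddit4 and Sesn2, inhibitors of mTORC1. Ddit3 rose with stretch under both siRNAs, by 0.41 ± 0.09 under Wnt5a siRNA (adjusted p = 0.0076) and by 0.32 ± 0.09 under control siRNA (adjusted p = 0.0085). The rise under control siRNA was not called with each library scaled to the same sum (0.09, adjusted p = 0.41) or after quantile normalization (0.19, adjusted p = 0.097). Atf5 was higher with Wnt5a siRNA in stretched cells (1.11 ± 0.21, adjusted p = 0.0047) and in unstretched cells (0.71 ± 0.21, adjusted p = 0.026). Its call in unstretched cells was lost without unstretched Wnt5a siRNA 1, 2 or 3 or unstretched control 1 (log2 change 0.53 to 0.74, adjusted p = 0.058 to 0.10). Ddit4 was likewise higher in stretched cells (0.91 ± 0.18, adjusted p = 0.0058) and unstretched cells (0.59 ± 0.18, adjusted p = 0.029), and the second call was lost without unstretched Wnt5a siRNA 1 or 3 or unstretched control 1, 2 or 3 (log2 change 0.50 to 0.64, adjusted p = 0.058 to 0.095). With stretch under control siRNA neither Atf5 (−0.08, adjusted p = 0.76) nor Ddit4 (−0.16, adjusted p = 0.47) passed the test, but without stretched control 3 both were called lower (Atf5 −0.40, adjusted p = 0.023, and Ddit4 −0.44, adjusted p = 0.0033). Sesn2 was not called in any of the 5 comparisons, with a range of 21.4 to 24.2 FPKM in stretched Wnt5a siRNA, 21.6 to 23.4 in unstretched Wnt5a siRNA, 18.7 to 20.8 in stretched control and 19.8 to 24.3 in unstretched control cells. Under control siRNA Sesn2 changed with stretch by −0.17, and it was called lower without unstretched control 1 (log2 change −0.24, adjusted p = 0.034).

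**Figure D2:**
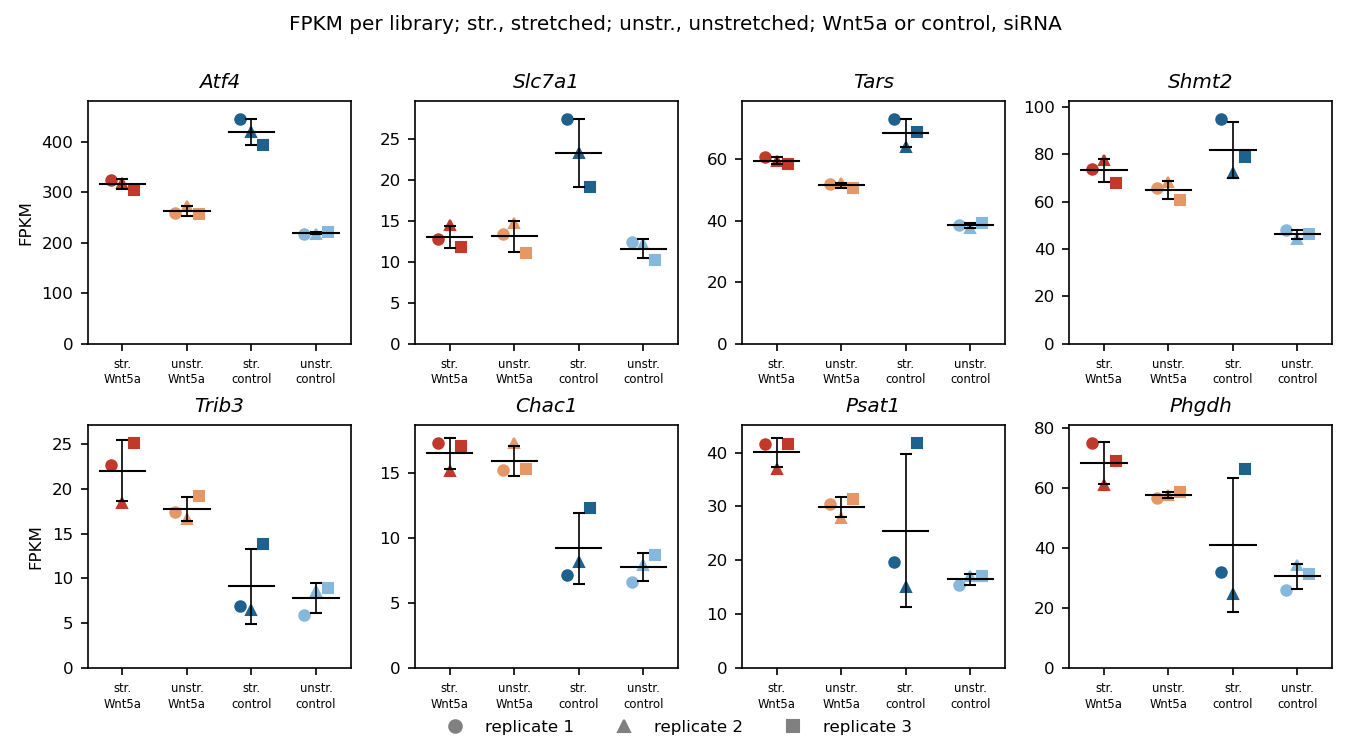
FPKM of leading members in each library, by group, with stretched groups left of unstretched ones and Wnt5a siRNA left of control siRNA. Points are libraries, and bars are group means with the SD (n = 3). Atf4 and Tars are highest in stretched control cells, while Trib3 and Chac1 are higher in all 6 Wnt5a siRNA libraries than in all 6 control libraries.

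Among the enzymes, 3 that move one-carbon units between serine, glycine and folate shared a pattern. Shmt2, the mitochondrial serine hydroxymethyltransferase, had 73.8, 77.7 and 68.0 FPKM in stretched Wnt5a siRNA cells and 65.8, 68.3 and 60.8 FPKM in unstretched Wnt5a siRNA cells, and 94.8, 71.9 and 78.8 FPKM in stretched control cells and 48.0, 44.1 and 46.4 FPKM in unstretched control cells. Unstretched control libraries lay below all others. With stretch Shmt2 changed by 0.17 ± 0.09 under Wnt5a siRNA (adjusted p = 0.25) and rose by 0.80 ± 0.09 under control siRNA (adjusted p = 2.3e-05), with an interaction of −0.64 ± 0.13 (adjusted p = 0.0064). In unstretched cells Wnt5a siRNA raised it by 0.48 ± 0.09 (adjusted p = 0.0033).

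Mthfd2, the mitochondrial enzyme that passes the one-carbon unit on from methylene-tetrahydrofolate, had 50.6, 52.7 and 45.0 FPKM in stretched Wnt5a siRNA cells and 43.1, 52.8 and 44.3 FPKM in unstretched Wnt5a siRNA cells. In control cells it had 57.4, 44.5 and 56.7 FPKM with stretch and 28.6, 30.1 and 25.9 FPKM without, and only the unstretched control group stood apart. Its change with stretch was 0.08 ± 0.11 under Wnt5a siRNA (adjusted p = 0.66) and 0.88 ± 0.11 under control siRNA (adjusted p = 4.0e-05), with an interaction of −0.79 ± 0.16 (adjusted p = 0.0051). Wnt5a siRNA raised Mthfd2 in unstretched cells by 0.70 ± 0.11 (adjusted p = 0.0012) and changed it by −0.09 ± 0.11 in stretched cells (adjusted p = 0.58). Shmt1, the cytosolic counterpart of Shmt2, had 10.4, 10.4 and 9.09 FPKM in stretched Wnt5a siRNA cells, 8.45, 7.91 and 8.11 in unstretched Wnt5a siRNA cells, 10.8, 10.0 and 9.83 in stretched control cells and 5.98, 6.24 and 5.40 in unstretched control cells. Stretch raised Shmt1 by 0.71 ± 0.08 under control siRNA (adjusted p = 3.0e-05), and Wnt5a siRNA raised it by 0.42 ± 0.08 in unstretched cells (adjusted p = 0.0044). The interaction of −0.45 ± 0.12 (adjusted p = 0.019) was not called without stretched Wnt5a siRNA 3 or unstretched control 3 (log2 change −0.40 to −0.39, adjusted p = 0.053 to 0.055).

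Asns, which makes asparagine, had 73.7, 69.1 and 68.2 FPKM in stretched Wnt5a siRNA cells and 62.9, 64.8 and 62.7 FPKM in unstretched Wnt5a siRNA cells. It had 46.6, 36.0 and 76.0 FPKM in stretched control cells and 34.5, 36.6 and 37.7 FPKM in unstretched control cells. Stretched control 2 lay within the unstretched control range, and stretched control 3 above every other library. With Wnt5a siRNA in unstretched cells Asns rose by 0.79 ± 0.18 (adjusted p = 0.0086). Its call with stretch under control siRNA (0.46 ± 0.18, adjusted p = 0.0499) was lost without stretched Wnt5a siRNA 1, 2 or 3 or unstretched Wnt5a siRNA 1, 2 or 3 or stretched control 1 or 3 or unstretched control 1, 2 or 3 (log2 change 0.17 to 0.52, adjusted p = 0.061 to 0.12). The lowest of these, 0.17, was that without stretched control 3. In stretched cells its change with Wnt5a siRNA was 0.47 ± 0.18 (adjusted p = 0.074), and it was called without stretched control 3 (log2 change 0.77, adjusted p = 7.2e-05).

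Pycr1, which completes proline synthesis in mitochondria, had 16.6, 15.1 and 13.9 FPKM in stretched Wnt5a siRNA cells and 14.4, 14.0 and 14.9 FPKM in unstretched Wnt5a siRNA cells, and 9.71, 7.60 and 13.9 FPKM in stretched control cells and 9.65, 9.56 and 7.00 FPKM in unstretched control cells. The Wnt5a siRNA groups were close to each other and above the control groups at the same stretch. Pycr1 rose with Wnt5a siRNA in stretched cells by 0.54 ± 0.17 (adjusted p = 0.034), a call lost without stretched Wnt5a siRNA 1, 2 or 3 or stretched control 1 or 2 (log2 change 0.36 to 0.60, adjusted p = 0.065 to 0.13). In unstretched cells it rose by 0.68 ± 0.17 (adjusted p = 0.012), a call lost without unstretched control 3 (log2 change 0.54, adjusted p = 0.056). Psat1, Psph and Phgdh, the 3 enzymes of the serine pathway, were all higher on average with Wnt5a siRNA at either stretch. In stretched cells the change was 0.76 ± 0.25 for Psat1 (adjusted p = 0.042), 0.85 ± 0.26 for Phgdh (adjusted p = 0.029) and 0.26 ± 0.14 for Psph (adjusted p = 0.19). Without stretched control 3 all 3 were called, at 1.17, 1.25 and 0.43. The call of Psat1 was lost without stretched Wnt5a siRNA 1, 2 or 3 or unstretched Wnt5a siRNA 1, 2 or 3 or stretched control 1 or 2 or unstretched control 1, 2 or 3 (log2 change 0.46 to 0.81, adjusted p = 0.052 to 0.16) and that of Phgdh without stretched Wnt5a siRNA 1 or 3 or stretched control 1 or 2 (log2 change 0.56 to 0.84, adjusted p = 0.084 to 0.11).

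In unstretched cells Psat1 rose with Wnt5a siRNA by 0.82 ± 0.25 (adjusted p = 0.029) and Phgdh by 0.91 ± 0.26 (adjusted p = 0.020), and in both the siRNA libraries lay wholly above the control libraries. The call of Psat1 was lost without unstretched Wnt5a siRNA 1, 2 or 3 or unstretched control 1, 2 or 3 (log2 change 0.77 to 0.87, adjusted p = 0.059 to 0.078) and that of Phgdh without unstretched Wnt5a siRNA 1 or 2 or unstretched control 1 or 3 (log2 change 0.80 to 0.93, adjusted p = 0.053 to 0.066). The change of Psph was 0.29 ± 0.14 (adjusted p = 0.14), and it was called without stretched control 2 or 3 (log2 change 0.29, adjusted p = 0.023 to 0.046). With stretch under control siRNA, Psph was called higher (0.40 ± 0.14, adjusted p = 0.033), a call lost without stretched control 1 or 3 or unstretched control 2 or 3 (log2 change 0.23 to 0.41, adjusted p = 0.064 to 0.12).

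Of the transporters, Slc1a5, a carrier of glutamine and other neutral amino acids, had the largest change with stretch under control siRNA among the members tested. It had 31.4, 32.0 and 30.5 FPKM in stretched Wnt5a siRNA cells and 24.3, 23.9 and 21.9 FPKM in unstretched Wnt5a siRNA cells, and 31.6, 25.0 and 36.8 FPKM in stretched control cells and 11.1, 13.3 and 12.6 FPKM in unstretched control cells. Both stretched groups lay above both unstretched ones. Stretch raised Slc1a5 by 0.41 ± 0.11 under Wnt5a siRNA (adjusted p = 0.031) and by 1.25 ± 0.11, or 2.38-fold, under control siRNA (adjusted p = 5.1e-06). The call under Wnt5a siRNA was lost without stretched Wnt5a siRNA 1, 2 or 3 or unstretched Wnt5a siRNA 1, 2 or 3 (log2 change 0.36 to 0.44, adjusted p = 0.062 to 0.10). The interaction was −0.84 ± 0.16 (adjusted p = 0.0048), and in unstretched cells Wnt5a siRNA raised Slc1a5 by 0.87 ± 0.11 (adjusted p = 0.00067).

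Slc7a1, the carrier of arginine and lysine, had 12.8, 14.6 and 11.9 FPKM in stretched Wnt5a siRNA cells and 13.4, 14.8 and 11.1 FPKM in unstretched Wnt5a siRNA cells. Control cells had 27.5, 23.3 and 19.1 FPKM with stretch and 12.5, 12.2 and 10.3 FPKM without stretch, so that stretched control was the only group that stood apart. Its change with stretch was 0.00 ± 0.14 under Wnt5a siRNA (adjusted p = 1.0) and 0.93 ± 0.14 under control siRNA (adjusted p = 0.00012). The interaction of −0.93 ± 0.19 was the most negative of all members (adjusted p = 0.0062). With Wnt5a siRNA Slc7a1 was lower in stretched cells (−0.78 ± 0.14, adjusted p = 0.0034), and it changed by 0.16 ± 0.14 in unstretched cells (adjusted p = 0.42).

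Slc3a2 and Slc7a5 form the heavy and light chain of a carrier of large neutral amino acids. The heavy chain Slc3a2 had 162, 159 and 159 FPKM in stretched Wnt5a siRNA cells, 127, 139 and 123 in unstretched Wnt5a siRNA cells, 177, 157 and 163 in stretched control cells and 101, 106 and 102 in unstretched control cells. Both stretched groups lay above both unstretched ones. With stretch it rose by 0.30 ± 0.06 under Wnt5a siRNA (adjusted p = 0.0077) and by 0.68 ± 0.06 under control siRNA (adjusted p = 6.0e-06), with an interaction of −0.38 ± 0.09 (adjusted p = 0.012). The light chain Slc7a5 had 73.0, 73.0 and 75.3 FPKM in stretched Wnt5a siRNA cells and 70.4, 79.5 and 63.4 FPKM in unstretched Wnt5a siRNA cells, and 46.0, 40.2 and 72.1 FPKM in stretched control cells and 34.3, 31.8 and 27.2 FPKM in unstretched control cells. Its libraries did not overlap between the siRNAs at either stretch. In unstretched cells Wnt5a siRNA raised Slc7a5 by 1.17 ± 0.17 (adjusted p = 0.00093), 2.25-fold. Its change with stretch was 0.06 ± 0.17 under Wnt5a siRNA (adjusted p = 0.85), not called, and 0.71 ± 0.17 under control siRNA (adjusted p = 0.0036), called, and the interaction did not pass the test (−0.65 ± 0.24, adjusted p = 0.066). It was called without stretched control 2 or 3 (log2 change −0.82 to −0.40, adjusted p = 0.019 to 0.044).

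Slc38a2, a sodium-coupled carrier of small neutral amino acids, had 209, 206 and 212 FPKM in stretched Wnt5a siRNA cells and 171, 158 and 184 FPKM in unstretched Wnt5a siRNA cells, and 251, 268 and 245 FPKM in stretched control cells and 191, 191 and 204 FPKM in unstretched control cells. Both stretched groups lay above the unstretched groups, and both Wnt5a siRNA groups below the control group at the same stretch. Slc38a2 rose with stretch by 0.29 ± 0.07 under Wnt5a siRNA (adjusted p = 0.011) and by 0.38 ± 0.07 under control siRNA (adjusted p = 0.00040). With Wnt5a siRNA it fell in stretched cells (−0.29 ± 0.07, adjusted p = 0.0097). Its fall in unstretched cells (−0.19 ± 0.07, adjusted p = 0.042) was the only one among the members there, and was lost without stretched Wnt5a siRNA 1, 2 or 3 or unstretched Wnt5a siRNA 1 or 2 or stretched control 1 or unstretched control 1, 2 or 3 (log2 change −0.21 to −0.14, adjusted p = 0.052 to 0.17). All 4 calls of Slc38a2 were lost with each library scaled to the same sum, which gave 0.17, 0.15, −0.17 and −0.19 in the order of these results.

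The light chain of the cystine carrier, Slc7a11, was low, at 3.23 to 3.75 FPKM in stretched Wnt5a siRNA, 2.52 to 2.72 in unstretched Wnt5a siRNA, 1.32 to 3.53 in stretched control and 1.02 to 1.28 in unstretched control cells. It was higher with Wnt5a siRNA in unstretched cells (0.77 ± 0.21, adjusted p = 0.017), a call lost without unstretched Wnt5a siRNA 1 or unstretched control 3 (log2 change 0.74, adjusted p = 0.056 to 0.058). In stretched cells it was called higher as well (0.64 ± 0.21, adjusted p = 0.041) but not without stretched Wnt5a siRNA 1, 2 or 3 or unstretched Wnt5a siRNA 1, 2 or 3 or stretched control 1 or 2 or unstretched control 1, 2 or 3 (log2 change 0.48 to 0.68, adjusted p = 0.052 to 0.17). Without stretched control 3 the change was 0.96. Slc1a4, a carrier of alanine, serine and cysteine, was called in 1 comparison, with Wnt5a siRNA in unstretched cells (0.33 ± 0.08, adjusted p = 0.011), and that call was lost without unstretched Wnt5a siRNA 2 or unstretched control 3 (log2 change 0.27 to 0.28, adjusted p = 0.0506 to 0.055).

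The 16 cytosolic synthetases, which attach amino acids to their tRNAs, all rose with stretch under control siRNA, by 0.20 for Kars, the enzyme for lysine, to 0.81 for Tars, the enzyme for threonine, with a median of 0.58. In each of the 16, stretched control libraries lay wholly above unstretched control libraries, against 29% of all genes. Each was called higher, against 27.5% of all genes. Their summed level was 1223 to 1265 FPKM in stretched Wnt5a siRNA, 1098 to 1134 in unstretched Wnt5a siRNA, 1220.3 to 1343 in stretched control and 892 to 898 in unstretched control libraries. Per length, Sars, the enzyme for serine, was the most abundant of them and Cars, the enzyme for cysteine, the least. The rise of 15 of them was called whichever 1 library was left out. Kars was not called without stretched control 1 or 2 or unstretched control 1, 2 or 3 (log2 change 0.16 to 0.20, adjusted p = 0.052 to 0.099). With each library scaled to the same sum, 12 of the 16 were called higher, against 13.8% of all genes, and Kars changed by −0.03.

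**Figure D3:**
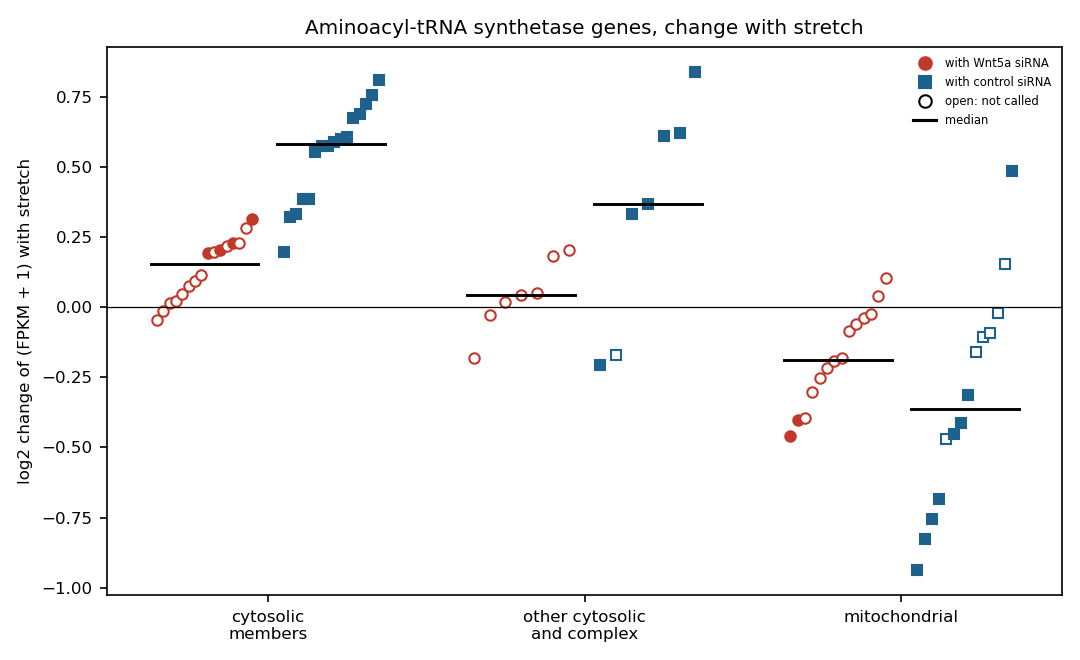
Change with stretch under Wnt5a siRNA and under control siRNA for cytosolic synthetases among the members, other cytosolic synthetases with proteins of their complex, and mitochondrial synthetases, as the difference of log2(FPKM + 1). Each point is a gene, open where it was not called, and each bar is a median. Cytosolic members lie between −0.04 and 0.32 under Wnt5a siRNA and between 0.20 and 0.81 under control siRNA, and mitochondrial synthetases between −0.46 and 0.10 under Wnt5a siRNA and between −0.94 and 0.49 under control siRNA.

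Tars had 60.7, 59.3 and 58.6 FPKM in stretched Wnt5a siRNA cells and 51.8, 52.2 and 50.5 FPKM in unstretched Wnt5a siRNA cells, and 73.1, 63.8 and 68.8 FPKM in stretched control cells and 38.8, 37.5 and 39.3 FPKM in unstretched control cells. The 4 groups did not overlap and stood in the same order as those of Atf4. Stretch raised Tars by 0.21 ± 0.06 under Wnt5a siRNA (adjusted p = 0.035) and by 0.81 ± 0.06, or 1.76-fold, under control siRNA (adjusted p = 1.8e-06), with an interaction of −0.61 ± 0.08 (adjusted p = 0.0015). The call under Wnt5a siRNA was lost without stretched Wnt5a siRNA 1, 2 or 3 or unstretched Wnt5a siRNA 1, 2 or 3 or unstretched control 2 (log2 change 0.19 to 0.22, adjusted p = 0.051 to 0.12). With Wnt5a siRNA Tars was lower in stretched cells (−0.20 ± 0.06, adjusted p = 0.029) and higher in unstretched cells (0.41 ± 0.06, adjusted p = 0.00098). The lower value in stretched cells was not called without stretched Wnt5a siRNA 1, 2 or 3 or stretched control 1 (log2 change −0.21 to −0.15, adjusted p = 0.058 to 0.13).

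Hars, the enzyme for histidine, had 63.3, 62.9 and 57.8 FPKM in stretched Wnt5a siRNA cells and 52.5, 52.4 and 51.4 FPKM in unstretched Wnt5a siRNA cells, and 71.1, 69.6 and 67.3 FPKM in stretched control cells and 42.5, 41.5 and 37.8 FPKM in unstretched control cells. Again no groups overlapped and stretched control was highest. Its rise with stretch was 0.23 ± 0.06 under Wnt5a siRNA (adjusted p = 0.026) and 0.76 ± 0.06 under control siRNA (adjusted p = 3.3e-06), with an interaction of −0.53 ± 0.09 (adjusted p = 0.0026). The smaller rise was not called without stretched Wnt5a siRNA 1 or 2 or unstretched Wnt5a siRNA 1, 2 or 3 (log2 change 0.21 to 0.24, adjusted p = 0.059 to 0.10). Nars, the enzyme for asparagine, had 139.9, 135 and 133 FPKM in stretched Wnt5a siRNA cells, 106, 112 and 109 in unstretched Wnt5a siRNA cells, 144, 129 and 145 in stretched control cells and 77.8, 86.7 and 86.9 in unstretched control cells. In Nars the 2 stretched groups overlapped and lay above the unstretched ones. It rose with stretch by 0.32 ± 0.07 under Wnt5a siRNA (adjusted p = 0.0072) and by 0.73 ± 0.07 under control siRNA (adjusted p = 4.8e-06), with an interaction of −0.41 ± 0.09 (adjusted p = 0.0095).

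Cars had 36.9, 39.0 and 38.1 FPKM in stretched Wnt5a siRNA cells and 32.0, 34.7 and 31.0 FPKM in unstretched Wnt5a siRNA cells, and 46.7, 42.3 and 45.0 FPKM in stretched control cells and 29.2, 25.4 and 27.4 FPKM in unstretched control cells, with no overlap between the 4 groups. Under Wnt5a siRNA its change with stretch of 0.22 ± 0.07 did not pass the test (adjusted p = 0.053), though it did without unstretched Wnt5a siRNA 2 or stretched control 2 or 3 (log2 change 0.22 to 0.26, adjusted p = 0.034 to 0.0497). Under control siRNA it rose by 0.69 ± 0.07 (adjusted p = 1.0e-05), and the interaction was −0.47 ± 0.10 (adjusted p = 0.0071). Rars, the enzyme for arginine, had 52.4, 50.0 and 45.7 FPKM in stretched Wnt5a siRNA cells, 45.5, 45.2 and 45.5 in unstretched Wnt5a siRNA cells, 62.9, 63.3 and 64.5 in stretched control cells and 43.1, 42.4 and 39.2 in unstretched control cells. Its groups did not overlap, with stretched control highest and unstretched control lowest. With stretch Rars changed by 0.12 ± 0.06 under Wnt5a siRNA (adjusted p = 0.24) and rose by 0.60 ± 0.06 under control siRNA (adjusted p = 1.1e-05), with an interaction of −0.49 ± 0.09 (adjusted p = 0.0039). With Wnt5a siRNA in stretched cells it fell (−0.36 ± 0.06, adjusted p = 0.0034).

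The remaining 11 synthetases were those for alanine (Aars), glutamate and proline (Eprs), glycine (Gars), isoleucine (Iars), lysine (Kars), leucine (Lars), methionine (Mars), serine (Sars), valine (Vars), tryptophan (Wars) and tyrosine (Yars). Under Wnt5a siRNA stretch changed them by −0.04 to 0.28, and of these Aars alone was called (0.19 ± 0.06, adjusted p = 0.040). That call was lost without stretched Wnt5a siRNA 1, 2 or 3 or unstretched Wnt5a siRNA 1, 2 or 3 or unstretched control 2 or 3 (log2 change 0.16 to 0.21, adjusted p = 0.055 to 0.14). What libraries of the same replicate number share is not known. With the number as a block in the fit, Aars was not called (adjusted p = 0.057) while Sars was (adjusted p = 0.041). The interaction was called for Eprs, Gars, Iars, Lars, Mars, Vars and Yars, from −0.31 for Lars to −0.65 for Yars, and not for Aars, Kars, Sars or Wars. The call of Lars was lost without stretched Wnt5a siRNA 2 or 3 or unstretched Wnt5a siRNA 1 or 3 or stretched control 1 or unstretched control 2 (log2 change −0.32 to −0.28, adjusted p = 0.051 to 0.070), and that of Eprs without stretched Wnt5a siRNA 1, 2 or 3 or unstretched Wnt5a siRNA 1, 2 or 3 or stretched control 1 or unstretched control 1, 2 or 3 (log2 change −0.39 to −0.36, adjusted p = 0.068 to 0.087).

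In stretched cells Wnt5a siRNA lowered Cars, Iars, Kars, Mars, Rars, Tars and Yars and raised no synthetase. The changes ran from −0.36 for Rars to −0.20 for Tars. Of all genes, 14.2% were lower and 13.2% higher. The calls of Iars, Rars and Yars held whichever 1 library was left out. The call of Cars was lost without stretched Wnt5a siRNA 1, 2 or 3 or stretched control 1 (log2 change −0.25 to −0.20, adjusted p = 0.053 to 0.12), that of Mars without stretched Wnt5a siRNA 2 or 3 or stretched control 1 or 2 (log2 change −0.19 to −0.17, adjusted p = 0.073 to 0.10), and that of Kars without stretched Wnt5a siRNA 1 or 3 or unstretched Wnt5a siRNA 1, 2 or 3 or stretched control 1 or 2 or unstretched control 1, 2 or 3 (log2 change −0.20 to −0.16, adjusted p = 0.054 to 0.17). Without stretched control 3, 9 synthetases were lower and 3, Eprs, Sars and Wars, were higher. Of all genes, 22.6% were lower and 21.8% higher there, so the 3 of 16 did not exceed that share. With each library scaled to the same sum, Iars, Rars and Yars were lower and Eprs and Sars higher, against 7.71% and 20.8% of all genes.

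In unstretched cells Wnt5a siRNA raised 13 of the 16 synthetases, from 0.22 for Iars to 0.55 for Eprs, against 14.6% of all genes. The 3 not called were Kars (0.04), Rars (0.13) and Mars (0.13), of which Mars was called without stretched control 3 (log2 change 0.13, adjusted p = 0.042). The call of Cars was lost without unstretched Wnt5a siRNA 1 or 2 or unstretched control 2 or 3 (log2 change 0.19 to 0.25, adjusted p = 0.055 to 0.098), and that of Iars without unstretched Wnt5a siRNA 1 or 2 or unstretched control 2 or 3 (log2 change 0.18 to 0.23, adjusted p = 0.054 to 0.084). The call of Sars was lost without unstretched control 1 or 2 (log2 change 0.27 to 0.29, adjusted p = 0.052 to 0.053), that of Vars without unstretched Wnt5a siRNA 2 or unstretched control 2 or 3 (log2 change 0.23 to 0.31, adjusted p = 0.073 to 0.10), and that of Yars without unstretched Wnt5a siRNA 1 or unstretched control 3 (log2 change 0.26 to 0.28, adjusted p = 0.058 to 0.063). Aars, Eprs, Gars, Hars, Lars, Nars, Tars and Wars were called higher whichever 1 library was left out.

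**Figure D4:**
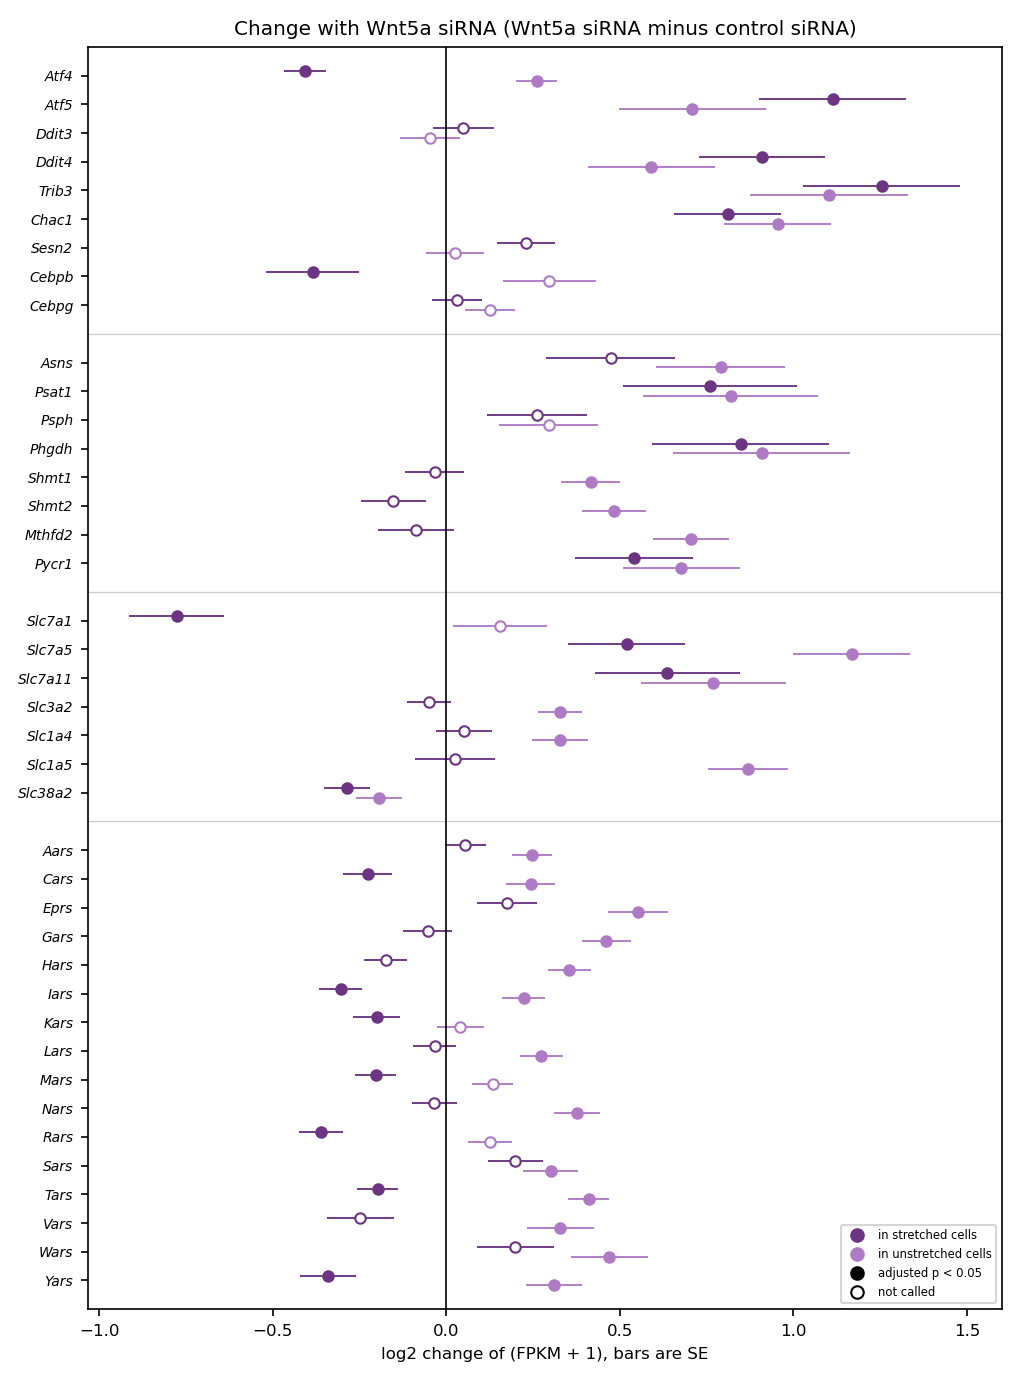
Change with Wnt5a siRNA of each tested member, as the difference of log2(FPKM + 1), in stretched and in unstretched cells. Points are the fitted changes, bars are the SE, and open symbols were not called. Synthetases lie between −0.36 and 0.20 in stretched cells and between 0.04 and 0.55 in unstretched cells, while Trib3 and Chac1 lie at 0.81 or above in both.

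Proteins that form a complex with synthetases, and the synthetases named outside the 16, were set beside the members. Aimp1, a scaffold of the multisynthetase complex, had 84.0, 77.3 and 71.3 FPKM in stretched control cells and 51.6, 48.9 and 49.3 FPKM in unstretched control cells (0.62 ± 0.07, adjusted p = 2.3e-05), with an interaction of −0.58 ± 0.10 (adjusted p = 0.0032). The scaffold Aimp2 (0.61 ± 0.12, adjusted p = 0.00080) and the complex protein Eef1e1 (0.84 ± 0.10, adjusted p = 2.3e-05) rose as well, as did both chains of the phenylalanine enzyme, Farsa (0.37) and Farsb (0.33). In this list of 7, 5 were called higher with stretch under control siRNA, against 27.5% of all genes. None was under Wnt5a siRNA, against 8.44% of all genes, a share at which few of 7 genes would be called. Dars, the enzyme for aspartate, was the 1 called lower under control siRNA, with 45.7, 47.9 and 49.0 FPKM in stretched control cells and 56.7, 54.1 and 54.0 FPKM in unstretched control cells (−0.21 ± 0.06, adjusted p = 0.013). Qars, the enzyme for glutamine, changed by −0.17 ± 0.07 (adjusted p = 0.071), and it was called lower without unstretched control 1 (log2 change −0.22, adjusted p = 0.038). Farsa and Farsb were not called with each library scaled to the same sum (0.15, adjusted p = 0.070, and 0.11, adjusted p = 0.29).

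Mitochondrial synthetases, which charge the tRNAs of the organelle, fell with stretch more often than they rose. Of 14 tested, 1 rose with stretch under control siRNA and 7 (50%) fell, against 26.8% of all genes called lower, with a median of −0.36. Tars2, for threonine, had 13.1, 13.5 and 13.6 FPKM in stretched Wnt5a siRNA cells and 17.8, 18.8 and 19.8 FPKM in unstretched Wnt5a siRNA cells, and 10.7, 13.8 and 10.9 FPKM in stretched control cells and 21.6, 21.8 and 21.4 FPKM in unstretched control cells. Both stretched groups lay below both unstretched ones. Its fall with stretch was −0.46 ± 0.09 under Wnt5a siRNA (adjusted p = 0.0051) and −0.83 ± 0.09 under control siRNA (adjusted p = 1.4e-05). Under control siRNA Cars2 (−0.94 ± 0.13, adjusted p = 9.9e-05) and Aars2 (−0.76 ± 0.12, adjusted p = 0.00017) also fell. Yars2, for tyrosine, was the 1 that rose (0.49 ± 0.09, adjusted p = 0.00062). Under Wnt5a siRNA 2 of 14 (14.3%) fell, Tars2 and Aars2, against 7.59% of all genes. The interaction was positive for Cars2 (0.76 ± 0.19, adjusted p = 0.015). The call for the fall of Aars2 under Wnt5a siRNA was lost without stretched Wnt5a siRNA 1 or 2 or unstretched Wnt5a siRNA 1, 2 or 3 (log2 change −0.45 to −0.35, adjusted p = 0.055 to 0.13). In stretched cells Wnt5a siRNA raised 3 of the 14 (21.4%), Cars2 (0.73 ± 0.13, adjusted p = 0.0040), Fars2 (0.73 ± 0.23, adjusted p = 0.033) and Rars2 (0.36 ± 0.12, adjusted p = 0.040), and lowered Yars2 (−0.44 ± 0.09, adjusted p = 0.0061), against 13.2% and 14.2% of all genes. In unstretched cells none of the 14 was called, against 14.6% of all genes higher and 13.9% lower. Summed over the list, mitochondrial synthetases had 92.1 to 95.9 FPKM in stretched Wnt5a siRNA, 107 to 113 in unstretched Wnt5a siRNA, 87.3 to 88.9 in stretched control and 115 to 117 in unstretched control libraries. With stretch under control siRNA 3 of 6 cardiomyocyte markers fell and 1 rose, against 26.8% and 27.5% of all genes. The part of cardiomyocytes in this result was not tested.

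Upstream of ATF4, a list held 8 genes of eIF2 kinases, eIF2 phosphatase subunits and eIF2 factors. With stretch under Wnt5a siRNA none of the 8 was called, against 8.44% of all genes higher and 7.59% lower. Under control siRNA 4 were called higher (50%) and 1 lower, against 27.5% and 26.8% of all genes. Eif2s1, the alpha subunit of eIF2 that the kinases phosphorylate, rose under control siRNA (0.62 ± 0.08, adjusted p = 6.5e-05), with an interaction of −0.48 ± 0.12 (adjusted p = 0.013). The phosphatase subunits Ppp1r15b (0.46 ± 0.10, adjusted p = 0.0019) and Ppp1r15a (0.74 ± 0.19, adjusted p = 0.0063) and the kinase Eif2ak3, which encodes PERK (0.30 ± 0.08, adjusted p = 0.0086), also rose. Ppp1r15a, which encodes GADD34, had 92.0, 94.6 and 49.5 FPKM in stretched control cells and 46.0, 46.7 and 41.8 FPKM in unstretched control cells, so that stretched control 3 lay closer to the unstretched ones. Eif2ak4, the amino acid sensor GCN2, was the 1 called lower (−0.23 ± 0.07, adjusted p = 0.020). Among the 8, Wnt5a siRNA in unstretched cells raised 1, Eif2ak3 (0.32 ± 0.08, adjusted p = 0.013), a call lost without unstretched control 3 (log2 change 0.29, adjusted p = 0.059). Phosphorylation of eIF2 was not measured.

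Of 22 other genes linked to ATF4 that were tested, stretch raised 2 (9.09%) and lowered none under Wnt5a siRNA, against 8.44% and 7.59% of all genes. Under control siRNA it raised 9 (40.9%) and lowered 5 (22.7%), against 27.5% and 26.8% of all genes. Bcat1, which transfers the amino group of branched-chain amino acids, had 116, 125 and 112 FPKM in stretched Wnt5a siRNA cells and 86.6, 86.4 and 84.2 FPKM in unstretched Wnt5a siRNA cells, and 122, 93.8 and 152 FPKM in stretched control cells and 50.4, 47.9 and 47.0 FPKM in unstretched control cells. Under control siRNA it rose with stretch by 1.30 ± 0.13 (adjusted p = 7.6e-06), with an interaction of −0.84 ± 0.18 (adjusted p = 0.0072). Gadd45a, a stress gene of growth arrest, rose by 1.16 ± 0.14 (adjusted p = 3.3e-05), Gfpt1, of hexosamine synthesis, by 0.70 ± 0.10 (adjusted p = 0.00014) and Xpot, the exporter of tRNA from the nucleus, by 0.50 ± 0.08 (adjusted p = 0.00015). The 5 that fell were Stc2 (−0.69 ± 0.19, adjusted p = 0.0090), Got1 (−0.35 ± 0.08, adjusted p = 0.0029), Slc38a7 (−0.20 ± 0.08, adjusted p = 0.0498), Sesn1 (−0.72 ± 0.19, adjusted p = 0.0070) and Sesn3 (−0.61 ± 0.21, adjusted p = 0.026). Wnt5a siRNA in unstretched cells raised 9 of the 22 (40.9%) and lowered none, against 14.6% and 13.9% of all genes. Slc7a3, a carrier of basic amino acids, had 14.0, 10.8 and 13.1 FPKM in unstretched Wnt5a siRNA cells and 3.96, 3.77 and 3.50 FPKM in unstretched control cells (1.52 ± 0.29, adjusted p = 0.0032). Cth, which makes cysteine from cystathionine, had 9.02, 10.1 and 9.01 FPKM in unstretched Wnt5a siRNA cells and 3.25, 3.48 and 2.36 FPKM in unstretched control cells (1.38 ± 0.20, adjusted p = 0.00093). Nupr1, another gene of this list, was listed at 0 in all 12 libraries.

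Of 9 further one-carbon and glycine genes tested, none rose and 1, Amt, fell with stretch under Wnt5a siRNA, against 8.44% and 7.59% of all genes. Under control siRNA 3 (33.3%) rose and 1 fell, against 27.5% and 26.8% of all genes. Mthfd1l, which completes the mitochondrial folate pathway, had 11.7, 11.4 and 10.8 FPKM in stretched Wnt5a siRNA cells and 11.3, 11.3 and 10.4 FPKM in unstretched Wnt5a siRNA cells, and 9.23, 6.36 and 10.8 FPKM in stretched control cells and 5.39, 4.88 and 4.38 FPKM in unstretched control cells. Unstretched control libraries were the lowest. Its change was 0.71 ± 0.14 with stretch under control siRNA (adjusted p = 0.0011) and 1.03 ± 0.14 with Wnt5a siRNA in unstretched cells (adjusted p = 0.00074). Gcsh (0.50 ± 0.09, adjusted p = 0.00080), of the glycine cleavage system, and Mthfd1 (0.44 ± 0.09, adjusted p = 0.0020), the cytosolic folate enzyme, rose with stretch under control siRNA, and Amt, another part of the glycine cleavage system, fell (−0.67 ± 0.10, adjusted p = 0.00018). Wnt5a siRNA raised 5 of the 9 (55.6%) in unstretched cells and lowered none, against 14.6% and 13.9% of all genes.

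Chaperones and related genes of the endoplasmic reticulum, which are targets of the ATF6 and XBP1 arms of the unfolded protein response rather than of ATF4 alone, rose with stretch under both siRNAs. Among them Xbp1 encodes a transcription factor and Edem1 a factor of protein degradation, not chaperones. Under Wnt5a siRNA 11 of 12 were called higher, with a median of 0.46, against 8.44% of all genes. Under control siRNA all 12 were, with a median of 0.86, against 27.5% of all genes. Hspa5, which encodes BiP, had 794, 896 and 700.1 FPKM in stretched Wnt5a siRNA cells and 491, 476 and 469.6 FPKM in unstretched Wnt5a siRNA cells, and 1196, 1049.8 and 1008 FPKM in stretched control cells and 540.1, 546 and 508 FPKM in unstretched control cells. Stretched libraries lay above unstretched ones under either siRNA. Its change was 0.73 ± 0.09 under Wnt5a siRNA (adjusted p = 0.00051) and 1.02 ± 0.09 under control siRNA (adjusted p = 4.5e-06), and the interaction did not pass the test (−0.30 ± 0.13, adjusted p = 0.11), except without stretched Wnt5a siRNA 2 or stretched control 3 (log2 change −0.39 to −0.35, adjusted p = 0.044 to 0.047). In 5 of the 12 genes (41.7%) the rise with stretch was smaller under Wnt5a siRNA by the interaction test, against 12.1% of all genes. Differences ran from −0.58 for Sdf2l1 to −0.42 for Edem1, with Hsp90b1, Dnajb9 and Dnajc3 between. In stretched cells Wnt5a siRNA lowered 4 of the 12 (33.3%), Hspa5 (−0.45 ± 0.09, adjusted p = 0.0061), Hsp90b1, Xbp1 and Edem1, against 14.2% of all genes, and raised none. Wnt5a siRNA in unstretched cells raised 2 of these 12 genes (16.7%), Hyou1 (0.47 ± 0.11, adjusted p = 0.011) and Dnajc3 (0.28 ± 0.08, adjusted p = 0.025). That was near the share of all genes, 14.6%, while 30 of 40 members were raised. The call of Dnajc3 was lost without unstretched Wnt5a siRNA 1, 2 or 3 or unstretched control 1 or 2 (log2 change 0.24 to 0.30, adjusted p = 0.052 to 0.095).

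Members with and without the response element core in their promoter were compared as a description. With stretch under control siRNA, 8 of 12 members with the core and 19 of 25 without it were called higher, with median changes of 0.48 and 0.46. With Wnt5a siRNA in unstretched cells the counts were 10 of 12 with the core and 18 of 25 without it, and the medians 0.32 and 0.35. In stretched cells Wnt5a siRNA raised 3 and lowered 6 of the 12 with the core, and raised 6 and lowered 4 of the 25 without it. The smaller rise with stretch under Wnt5a siRNA was called in 7 of the 12 and in 10 of the 25. The 4 genes with no promoter in the table, Aldh18a1, Slc1a5, Gars and Rars, are left out of these counts.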

How the data were processed

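RNA for the 12 libraries (3 per group) was extracted with an miRNeasy kit and prepared with a TruSeq stranded mRNA kit, per the labels' protocols. The deposited values are FPKM per gene symbol. TopHat2 2.1.1, Bowtie2, Cuffdiff 2.2.1 and the rat build rn6 are named by the submitters' processing notes, while the annotation, whether strand was used and how reads with several positions were handled stand in none of the sources used here. Values of genes that overlap another gene are therefore uncertain. FPKM gives no depth, so precision is read from the libraries alone. In 1463 of 1523 genes under 0.5 FPKM (96.1%), values were whole multiples of 1 unit within 0.03, and the unit differed up to 1.21-fold between libraries. The summed FPKM of a library ran from 575161 to 709021. It was 619742 to 659933 in stretched and 575161 to 607276 in unstretched Wnt5a siRNA libraries. Stretched control libraries had 676014 to 709021 and unstretched control libraries 588509 to 598628. Stretched sums thus lay above unstretched ones under either siRNA, so the changes with stretch depend on the scaling.

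Genes with at least 1 FPKM in at least 3 libraries (10518 of 17312) were fitted as log2(FPKM + 1) with limma 3.58.1 in R 4.3.3, with 4 group means and 8 residual degrees of freedom. The Benjamini-Hochberg adjustment of the 2-sided p-values ran over all genes tested. A fold is on the log2(FPKM + 1) scale and understates the change of low genes. On simulated data the method called 50% to 57% of 1.5-fold changes and 90% to 99% of 3-fold changes between groups. A gene not called may thus have changed by 1.5-fold, and at times by more. Far fewer genes were changed in the simulation than were called in these data, so the rates here may differ. The interaction was not simulated. Members given in every library lead their role group by the smallest adjusted p in any comparison, up to 5 per group, and those from other lists by the same measure. Other genes are named because their calls or library values were singled out after they were seen. 1 gene outside the members is not reported here and is left out of its list. The members and all lists were chosen with earlier results of these data known. Comparisons share groups, so their changes are not independent. Alternatives were a pseudocount of 0.1, no filter, a filter at 5 FPKM, scaling each library to the same sum (TPM), a block for the replicate number, quantile normalization, the compared groups alone, and each library left out.

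Deviations from the group means of same-numbered libraries correlated weakly. The 3 correlations were 0.143 to 0.242 for stretch with Wnt5a siRNA and −0.0194 to 0.249 for stretch with control siRNA. They were 0.0947 to 0.231 for Wnt5a siRNA in stretched cells and 0.0583 to 0.186 in unstretched cells. The labels do not say what the numbers share.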

Additional observations from a re-analysis of the deposited data

Results flagged for a closer look

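The limma interaction test found that 20 members responded to stretch unequally under the siRNAs (adjusted p under 0.05), and in each the change was smaller with Wnt5a siRNA than with control siRNA. The differences below are the log2 change with stretch under Wnt5a siRNA minus that under control siRNA. Among regulators the difference was −0.67 for Atf4 and −0.68 for Cebpb. Among enzymes it was −0.45 for Shmt1, −0.64 for Shmt2 and −0.79 for Mthfd2. Among transporters it was −0.93 for Slc7a1, −0.38 for Slc3a2 and −0.84 for Slc1a5. Among synthetases it was −0.47 for Cars, −0.38 for Eprs, −0.52 for Gars, −0.53 for Hars, −0.53 for Iars and −0.31 for Lars. It was −0.34 for Mars, −0.41 for Nars, −0.49 for Rars, −0.61 for Tars, −0.58 for Vars and −0.65 for Yars.

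From the other lists, 17 genes are given that lead them by the smallest adjusted p in this same test. That they passed it follows from this choice. Other genes of these lists, among them Cth, Dnajb9 and Slc38a7, passed it as well. The difference was −0.58 for Aimp1, −0.64 for Eef1e1 and −0.64 for Aimp2. Among mitochondrial synthetases it was 0.76 for Cars2 and −0.45 for Yars2. It was −0.48 for Eif2s1, −0.44 for Ppp1r15b, −0.84 for Bcat1, −0.98 for Gadd45a, −0.62 for Gfpt1 and −0.70 for Slc38a1. It was −0.45 for Gcsh and −0.67 for Mthfd1l. Among chaperones and related genes it was −0.51 for Dnajc3, −0.48 for Hsp90b1, −0.58 for Sdf2l1 and −0.42 for Edem1. With 3 libraries in each group, single libraries were not tested for standing apart.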

How the results depend on the processing

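With each library scaled to the same sum, 1 member was called lower with stretch under control siRNA. Under Wnt5a siRNA 2 were higher with stretch. With Wnt5a siRNA 13 were higher and 5 lower in stretched cells, and 0 were lower in unstretched cells. That scaling left 13.8% of all genes higher and 42.7% lower with stretch under control siRNA, and Kars changed by −0.028 there. It left 4.77% higher with stretch under Wnt5a siRNA. With Wnt5a siRNA it left 20.8% higher and 7.71% lower in stretched cells and 13.3% lower in unstretched cells. For Wnt5a siRNA in stretched cells, quantile normalization gave 11 higher and 5 lower, against 11.1% and 11% of all genes. In unstretched cells it gave 0 lower, against 14.7%. With the compared groups alone, 16 members were higher with stretch under Wnt5a siRNA, against 11.2% of all genes. With Wnt5a siRNA in stretched cells 4 were higher and 6 lower, against 5.51% and 5.97%. Without a filter, 4 of 40 were higher there, near the share of all genes, 8.87%. Leaving out each library in turn gave 27 to 32 higher and 0 to 2 lower with stretch under control siRNA. Of all genes, 23.3% to 29.2% were higher and 22.6% to 28.2% lower. With stretch under Wnt5a siRNA, these fits gave 4 to 18 higher and 0 lower, against 4.69% to 12.6% and 3.39% to 12.4%. With Wnt5a siRNA in stretched cells they gave 4 to 14 higher and 6 to 13 lower, against 4.9% to 21.8% and 5.51% to 22.6%. In unstretched cells they gave 20 to 32 higher and 0 to 1 lower, against 8.84% to 19.1% and 7.94% to 18.4%. The interaction was called positive in 0 to 2 and negative in 17 to 22 members, against 7.18% to 16.5% and 7.73% to 18.1%. Aldh1l2, a mitochondrial folate enzyme not called with stretch under control siRNA, ranged there from −0.46 (without stretched control 3, called lower) to 0.39. The cause of these shifts was not tested. The replicate block left 30 and 0, 9 and 0, 8 and 11, 30 and 0, and 0 and 20 members called higher and lower. The order is stretch under control siRNA, stretch under Wnt5a siRNA, Wnt5a siRNA in stretched cells, Wnt5a siRNA in unstretched cells and the interaction. The shares of all genes were 27.4% and 26.8%, 8.38% and 7.72%, 13.6% and 14.2%, 15% and 14.4%, and 11.7% and 12.7%. With the block, Slc7a5 (adjusted p = 0.052) and Cebpb (adjusted p = 0.056) lost their calls in stretched cells, Slc38a2 (adjusted p = 0.053) lost its call in unstretched cells, and Hars was called lower in stretched cells (adjusted p = 0.040). Over all settings, 3434 of the single values of the members stayed on their side of the threshold, 76 of these with a change of sign while not called. A further 256 were no longer called, 64 became called, and 1 called value, that of Kars above, changed sign. FPKM gives no depth, so the counting error of low members such as Slc7a11 is not known, and 3 libraries a group limit what the tests can show.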
